A study of Mus musculus with 12 samples.

Results

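The genes described here were 10 heat shock chaperones: Hspa1a, Hspa1b, Hspa8, Hsph1, Dnajb1, Hsp90aa1, Hsp90ab1, Hspb1, Cryab and the collagen chaperone Serpinh1. They were chosen by name from what these proteins do, with earlier results of these data known, out of 29564 genes in the deposited tables. All 10 were in the tables, and 9 had enough counts to be tested. Polyadenylated RNA of left ventricles from 12 wild-type C57BL6 mice was sequenced, each mouse giving 1 library and each group holding 4 mice. Control-Veh mice were non-failing and received vehicle. HFpEF-Veh mice received vehicle after a high-fat diet combined with L-NAME, an inhibitor of nitric oxide synthase, a regimen used to model heart failure in which the ejection fraction is preserved. HFpEF-TYA-018 mice had this model and received TYA-018, an oral inhibitor of the deacetylase HDAC6, at 15 mg/kg. The vehicle was a mixture of DMSO, PEG-300 and water in every group. The series is titled as a single-dose experiment and the study describes hearts taken hours after that dose, which was followed here, although the treatment notes in the labels give daily dosing for 6 to 9 weeks. Ages of these mice were not given in the labels, and the methods name purchased C57BL/6J mice as male. The letters C (Control-Veh), V (HFpEF-Veh) and T (HFpEF-TYA-018) with a number from 1 to 4 name the libraries.

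Heat shock chaperones bind unfolded proteins and use the Hsp70 and Hsp90 machines to refold them. Hsp70 proteins are loaded with clients by J proteins and recharged by exchange factors. Small heat shock proteins hold unfolding clients until an Hsp70 takes them over. Many of these genes are switched on by the heat shock factor HSF1, which binds repeated GAA and TTC units called heat shock elements, and which is itself held inactive by Hsp90 and Hsp70. HDAC6 is a cytosolic deacetylase, Hsp90 is among its known substrates, and the comparison after the dose therefore asks whether chaperone transcripts moved when HDAC6 was inhibited. Serpinh1 encodes HSP47, which sits in the endoplasmic reticulum, binds the collagen triple helix and is needed for collagen to leave the cell correctly folded. In the heart collagen is made mainly by fibroblasts.

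Sequence just upstream of the start site is shown for the 4 genes with a match to a pair of heat shock element units. Serpinh1 is shown as well, though it had no match, and Dnajb1, also without a match, is not printed. Promoter windows from RefSeq (GRCm38.p6), from 250 bases before to 50 bases after each annotated start, were matched for 6 of the 10 genes (Hspa1a, Hspa1b, Hsph1, Dnajb1, Hspb1 and Serpinh1). The 150 bases before the start are printed for 5 of them, 5′ to 3′ on the gene's own strand, with each match to GAANNTTC or TTCNNGAA in capitals. Hspa1a is the minus strand of chr17:34972157-34972306, Hspa1b the minus strand of chr17:34959239-34959388, Hsph1 the minus strand of chr5:149636337-149636486, Hspb1 the plus strand of chr5:135887769-135887918 and Serpinh1 the minus strand of chr7:99353240-99353389.
Hspa1a: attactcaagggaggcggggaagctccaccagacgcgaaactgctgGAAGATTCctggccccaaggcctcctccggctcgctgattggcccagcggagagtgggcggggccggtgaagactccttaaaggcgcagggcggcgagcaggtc
Hspa1b: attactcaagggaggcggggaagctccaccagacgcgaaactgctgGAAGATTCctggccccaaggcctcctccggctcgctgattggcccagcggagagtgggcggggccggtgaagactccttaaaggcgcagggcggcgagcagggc
Hsph1: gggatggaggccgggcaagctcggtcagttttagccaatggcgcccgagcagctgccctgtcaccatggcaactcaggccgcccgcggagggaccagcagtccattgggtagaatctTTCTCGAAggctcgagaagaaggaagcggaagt
Hspb1: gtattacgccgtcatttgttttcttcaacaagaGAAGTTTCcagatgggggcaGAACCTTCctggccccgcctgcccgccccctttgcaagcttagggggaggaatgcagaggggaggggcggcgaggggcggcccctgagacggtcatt
Serpinh1: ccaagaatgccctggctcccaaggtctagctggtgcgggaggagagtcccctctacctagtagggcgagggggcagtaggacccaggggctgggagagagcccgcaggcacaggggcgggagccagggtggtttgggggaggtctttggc

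The Hspa1a and Hspa1b windows differed at 4 of 300 bases, and both held 1 paired unit that began at position -104 from the start. The Hspb1 window held paired units at -117 and -97. The first annotated Hsph1 window held a paired unit at -33 and overlapping pairs at 37 and 42 after the start, which together formed the 3-unit motif. Over both strands, 4 of the 6 genes had a paired unit in a window and 1 had the 3-unit motif, in which a further GAA or TTC unit follows the pair after any 2 bases. The near-identical Hspa1a and Hspa1b windows both count among those genes. Hspa8, Hsp90aa1, Hsp90ab1 and Cryab had no window to search. Of all 27025 genes with RefSeq windows of this length, 17.0% had a paired unit in a window and 0.662% the 3-unit motif, and of the 32851 windows 15.1% and 0.603% held them. The Dnajb1 and Serpinh1 windows held neither, which says only that these letters were not in these windows. A match is a description of letters and not of binding.

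Levels of the 10 transcripts spanned more than 3 orders of magnitude. The level per length was taken in 2 ways, as the deposited TPM and as CPM (estimated counts scaled to the library total) per kilobase, CPM per kb, of the longest annotated protein-coding transcript. On the CPM per kb scale the constitutive Hsp70 gene Hspa8 was highest, at 530.1 ± 42.5 (SD over 12 libraries), followed by the constitutive Hsp90 gene Hsp90ab1 at 319.5 ± 23.4 and the small heat shock gene Hspb1 at 201.1 ± 27.3. These 3 did not overlap one another on that scale. Stress-inducible Hsp90aa1 was at 22.7 ± 2.82 and Serpinh1 at 17.9 ± 8.69, and their ranges overlapped. Cryab, Dnajb1, Hspa1a and Hspa1b followed with means between 1.43 and 7.51 CPM per kb, each overlapping its neighbour in the order. Hsph1 was last at 0.0245 ± 0.0331.

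The order changed on the TPM scale, where Hspb1 was first at 237.2 ± 42.3, and Hspa8 (162.4 ± 56.5) and Hsp90ab1 (160.1 ± 34.8) overlapped each other and Hspa8 overlapped Hspb1. The deposited effective lengths, by which TPM divides the count, stood far from the annotated transcripts for some genes. For Serpinh1 they ran from 5746 to 10420 bases, while its longest annotated transcript (GENCODE M21) is 2274 bases. For Dnajb1 they ran from 5754 to 7751 against 2996 bases, and for Hspb1 from 251.3 to 325.3 against 930 bases. The order of genes that lie close together was therefore not read as a result. Some Serpinh1 lengths and all Dnajb1 lengths exceeded even the annotated span of the gene on the chromosome. The reason, and whether such a row holds reads from elsewhere, was not tested. Comparisons between groups below are on CPM of each gene by itself, which leaves that doubt in place.

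**Figure D1:**
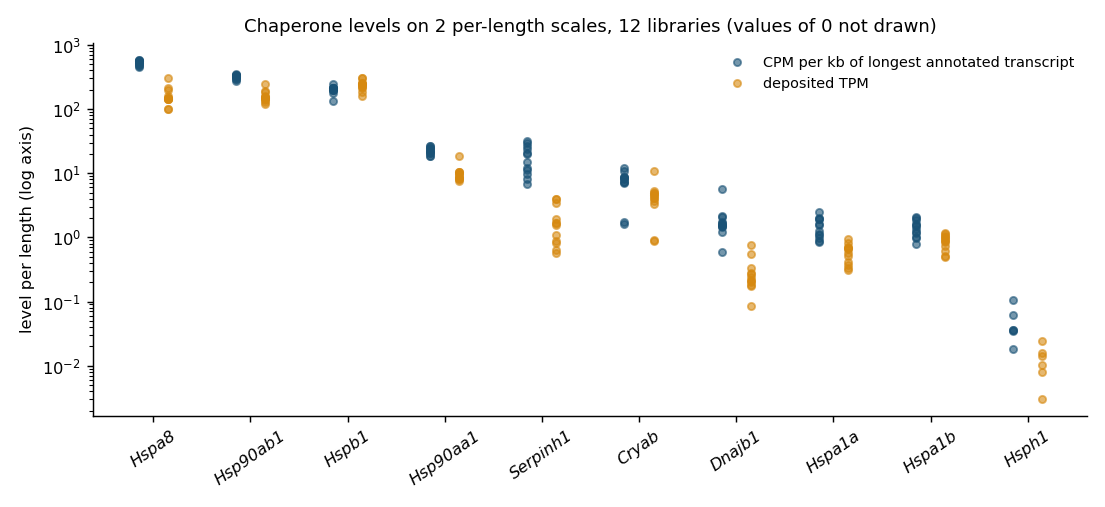
Level of each chaperone transcript per length in the 12 libraries, on a log axis, with 1 point per library. Blue points are CPM per kb of the longest annotated protein-coding transcript and orange points are deposited TPM, and values of 0 are not drawn. Hspa8, Hsp90ab1 and Hspb1 lie highest and Hsph1 lowest on both scales, and Serpinh1 lies lower by TPM than by CPM per kb.

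Across the series, totals ran from 61.2 M to 83.9 M estimated counts per library. The 10 genes together took 0.208% to 0.286% of all counts. Mitochondrial genes took 43.1% to 47.7% of counts in HFpEF-Veh, 37.0% to 40.6% in Control-Veh and 35.4% to 41.2% in HFpEF-TYA-018. All 7 cardiomyocyte markers were found in every group (summed 19582 to 25527 CPM), and no marker of fibroblasts, endothelium or macrophages was at 0 in a whole group. Summed red cell markers were 4785 to 14139 CPM in HFpEF-Veh, against at most 2309 in Control-Veh and 3572 in HFpEF-TYA-018. Fat markers (3 genes) summed to at most 1.18 CPM in a library, with Plin1 at 0 throughout both HFpEF groups. The mice of a group carried neighbouring animal numbers, and whatever went with that numbering and the group cannot be told apart.

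HFpEF-Veh against Control-Veh asked what the model did to these transcripts. Of the 9 tested genes, 2 rose (Serpinh1 and Hsp90aa1) and none fell, where 21.2% of all 14333 tested genes were called 10.9% higher and 10.3% lower. Calls were made with edgeR's quasi-likelihood test at an adjusted p under 0.05, and 2 of the 9 also had an unadjusted p under 0.05. The median log2 fold change of the 9 was 0.25, against -0.01 over all tested genes. Serpinh1 went up 2.18-fold and Hsp90aa1 1.26-fold. The groups did not overlap for 2 of the 9 genes, the same pair, and did not overlap for 23.5% of all tested genes.

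**Figure D2:**
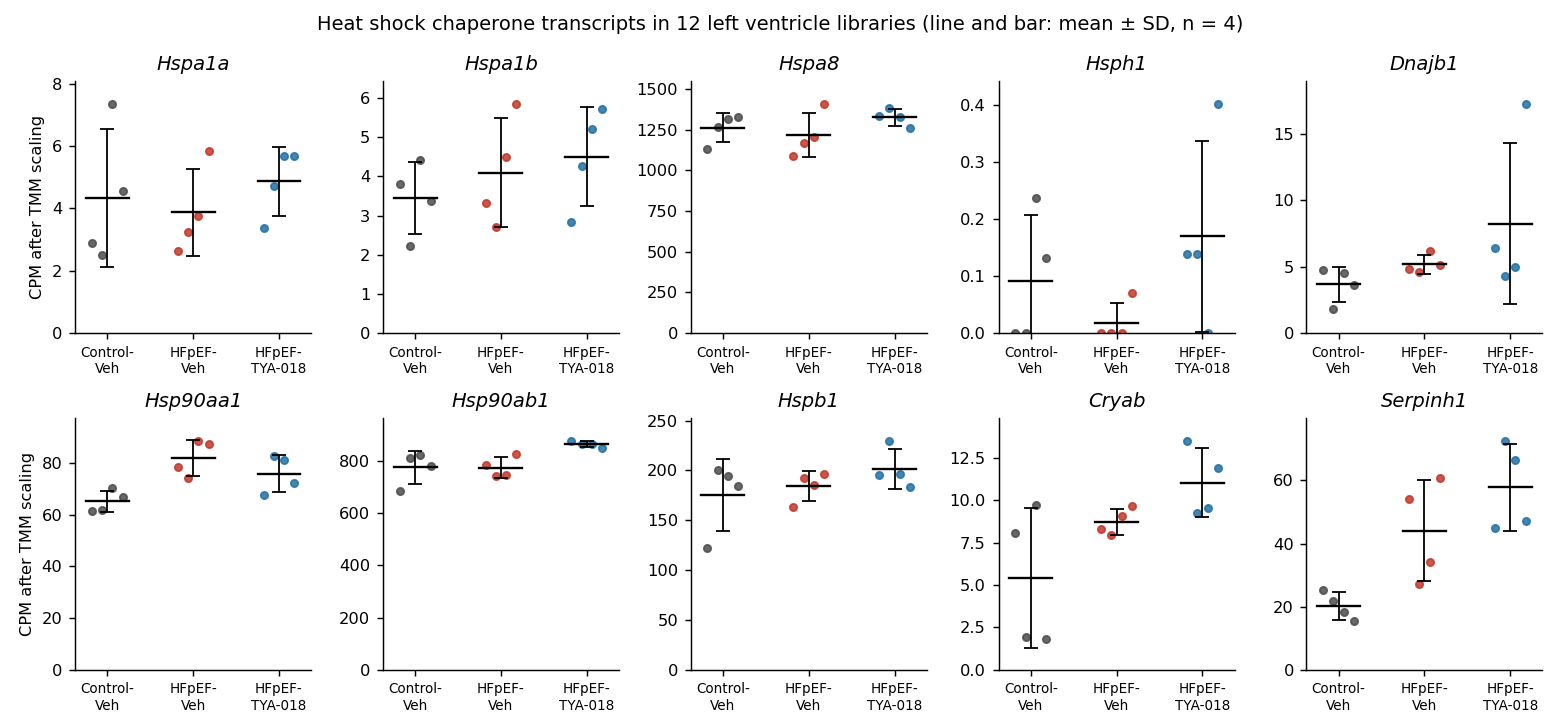
CPM after TMM scaling (y axis, from 0) of the 10 chaperone genes in Control-Veh (grey), HFpEF-Veh (red) and HFpEF-TYA-018 (blue), with 1 point per library and the mean ± SD of 4 libraries. Every HFpEF library lies above every Control-Veh library for Serpinh1, the HFpEF-Veh libraries do so for Hsp90aa1, and 1 HFpEF-TYA-018 library stands far above the others for Dnajb1.

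Serpinh1, the HSP47 gene (chromosome 7, GRCm38, 99345376 to 99353239, minus strand), had 25.3, 21.8, 18.3 and 15.4 CPM in C1 to C4. It had 54.1, 27.1, 34.0 and 60.9 CPM in V1 to V4, and 45.0, 72.6, 66.6 and 47.2 CPM in T1 to T4. Every library with the model was above every control library, V2 only just so, and the 2 HFpEF groups overlapped. Means (± SD, n = 4) were 20.2 ± 4.31 CPM for Control-Veh, 44.0 ± 16.0 for HFpEF-Veh and 57.8 ± 13.8 for HFpEF-TYA-018. The rise in HFpEF-Veh was 1.12 on the log2 scale (SE 0.26, edgeR adjusted p = 0.0103). Summed fibroblast markers (7 genes) were 460.3 to 673.0 CPM in Control-Veh, 671.0 to 944.6 in HFpEF-Veh and 454.6 to 647.8 in HFpEF-TYA-018, and their part in the Serpinh1 result was not tested. The fibroblast list includes Col1a1 and Col1a2, and 4 of its 7 genes rose in HFpEF-Veh. Summed macrophage markers (5 genes) were 58.1 to 70.8 CPM in Control-Veh and 90.4 to 113.0 in HFpEF-Veh. In bulk tissue, a change in the number of cells of a type and a change in RNA per cell cannot be told apart.

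Hsp90aa1, the stress-inducible cytosolic Hsp90 (chromosome 12, 110690605 to 110702728, minus strand), had 61.5, 61.9, 70.1 and 66.9 CPM in C1 to C4. It had 78.4, 74.1, 88.6 and 87.1 CPM in V1 to V4, and 67.5, 82.5, 81.1 and 72.1 CPM in T1 to T4. All HFpEF-Veh libraries were above all controls, and the treated libraries lay across both groups. The rise in HFpEF-Veh was 0.33 on the log2 scale (SE 0.08, edgeR adjusted p = 0.0143). Of its 31-base words, 62.9% also occur in other genes, mostly in the pseudogene Gm12346, but the pseudogene rows held few counts (a mean of 17.9 for Gm12346). Adding those counts to Hsp90aa1 (a mean of 4948) left the rise at 0.33, as so few counts could not move it. How reads were split among these genes was not tested.

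Neither Serpinh1 nor Hsp90aa1 was called between these groups when limma was run on log2(TPM + 1) of the deposited TPM. The log2 differences there were 0.46 (limma adjusted p = 0.245) and 0.17 (limma adjusted p = 0.589). That setting called 172 of all 14333 genes, where edgeR called 3033. Adding 1 also narrows the Serpinh1 difference, as its mean TPM was 0.79 in Control-Veh and 1.49 in HFpEF-Veh. With log2(TPM + 0.1), where limma called 301 genes, neither gene was called either. The cause of the missing calls was not tested. The adjusted p of Serpinh1 and of Hsp90aa1 ranged from 0.000818 to 0.245 and from 0.00121 to 0.589 over 21 alternatives, and both were called in 19 of them.

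The other chaperones gave no call between HFpEF-Veh and Control-Veh. Hsp90ab1, the constitutive partner of Hsp90aa1 (chromosome 17, 45567775 to 45573271, minus strand), had 686.4 to 824.8 CPM in Control-Veh and 742.1 to 827.6 in HFpEF-Veh, a log2 difference of -0.00 with a 95% interval from -0.15 to 0.14. Hspa8, the constitutive Hsp70 (chromosome 9, 40800984 to 40810087, plus strand), differed by -0.05 with an interval from -0.23 to 0.13. Hspb1, a small heat shock protein that also guards actin filaments (chromosome 5, 135887919 to 135889563, plus strand), differed by 0.07, with an interval from -0.22 to 0.37.

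The inducible Hsp70 pair was low. Hspa1a and Hspa1b lie side by side on the minus strand of chromosome 17 (34969190 to 34972156 and 34956436 to 34959238), encode nearly the same protein, and shared 63.8% and 67.6% of their 31-base words with each other, so how reads were split between them is uncertain. Hspa1a had 2.90, 2.50, 7.35 and 4.57 CPM in C1 to C4, 2.63, 3.24, 3.77 and 5.85 in V1 to V4 and 3.36, 4.73, 5.68 and 5.69 in T1 to T4. Hspa1b had 3.80, 2.21, 4.42 and 3.37 CPM in C1 to C4, 3.32, 2.71, 4.50 and 5.85 in V1 to V4 and 2.82, 4.27, 5.22 and 5.72 in T1 to T4. The 3 groups overlapped for both genes. With the counts of the pair summed, the log2 difference between HFpEF-Veh and Control-Veh was 0.03 (edgeR adjusted p = 0.951), and the sums ran from 4.72 to 11.8 CPM in Control-Veh and from 5.95 to 11.7 in HFpEF-Veh.

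**Figure D3:**
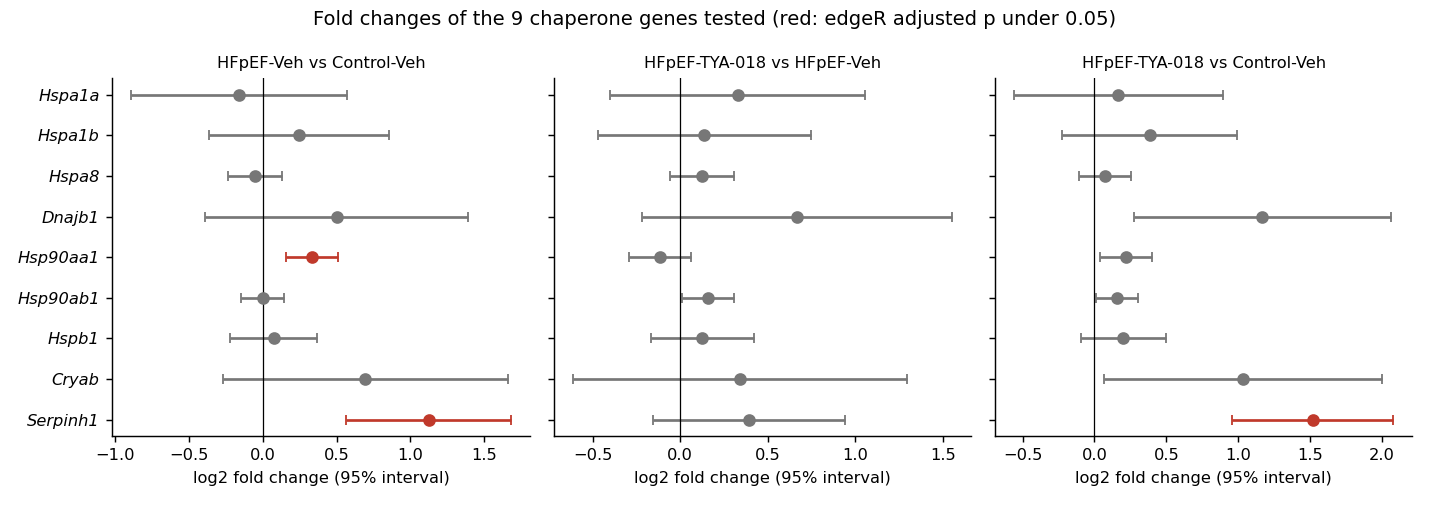
Log2 fold change (x axis) with its 95% interval for the 9 chaperone genes tested, in each of the 3 comparisons, from the edgeR fit across all genes. Red marks an adjusted p under 0.05. Serpinh1 and Hsp90aa1 are red for HFpEF-Veh vs Control-Veh, no gene is red for HFpEF-TYA-018 vs HFpEF-Veh, and Serpinh1 is red for HFpEF-TYA-018 vs Control-Veh.

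Dnajb1, the J protein that feeds clients to Hsp70 in the heat shock response (chromosome 8, 83608193 to 83612653, plus strand), had 4.72, 1.79, 4.54 and 3.60 CPM in C1 to C4. It had 4.81, 4.57, 6.21 and 5.16 CPM in V1 to V4, and 6.38, 4.33, 5.00 and 17.3 CPM in T1 to T4. Library T4 stood apart from the other 11. The log2 difference between HFpEF-Veh and Control-Veh was 0.50 (edgeR adjusted p = 0.412). Between HFpEF-TYA-018 and HFpEF-Veh it was 0.67 (adjusted p = 0.276), and 0.02 without T4. In T4 the levels of Hsph1, Hspa1a and Hspa1b were also the highest of the treated group, for Hspa1a level with T3, while Hspa8, Hsp90ab1 and Hspb1 were the lowest of it.

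Cryab encodes alpha B-crystallin, a small heat shock protein that protects desmin and titin and is known as abundant in heart muscle. Its row held little, between 1.81 and 13.5 CPM. The values were 8.08, 1.94, 9.75 and 1.81 CPM in C1 to C4, 8.29, 7.96, 9.05 and 9.63 in V1 to V4 and 13.5, 9.26, 9.52 and 11.9 in T1 to T4. C2 and C4 were low and every group overlapped Control-Veh. The log2 difference between HFpEF-Veh and Control-Veh was 0.69 with a 95% interval from -0.27 to 1.66. Hspb2, the next small heat shock gene, which overlaps Cryab on the opposite strand of chromosome 9 (Cryab spans 50751325 to 50756636), had 44.4 to 66.5 CPM. The cause of the low Cryab row was not tested. The library kit keeps strand, but whether the counting used it is not given in the sources used here.

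Hsph1, an Hsp110 exchange factor for Hsp70 (chromosome 5, 149614287 to 149636376, minus strand), was listed at 0 in 6 of 12 libraries and reached at most 0.402 CPM, an estimated count of 27.2, in T4. It was the only one of the 10 genes that did not pass the filter on low counts, and it was not tested. The row of Hsf1, the heat shock factor that drives these genes, named here after its values were seen, was also listed at 0 in 6 libraries (C1, C2, C4, V4, T2 and T4) and held 208.3 to 741.1 estimated counts in the others. Every group held both zeros and libraries with counts, so neither row was read as an absence of the transcript. Of a list of 5 genes (4 heat shock factors and the factor-binding protein Hsbp1), 4 were tested and none was called in any comparison, with 0 at an unadjusted p under 0.05.

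HFpEF-TYA-018 against HFpEF-Veh asked what the inhibitor did in hearts that already had the model. None of the 9 tested chaperone genes was called by edgeR, where 19.3% of all tested genes were called (8.93% higher and 10.4% lower), and 1 of the 9 (Hsp90ab1) had an unadjusted p under 0.05. DESeq2 also called 0, and limma on log2(TPM + 1) called 3 (Hspa8, Hsp90ab1 and Serpinh1, all higher). On that scale the median of all genes was itself shifted by 0.17, and 2228 genes were called higher and 68 lower, where edgeR called 1280 higher and 1487 lower. The median log2 difference of the 9 was 0.16, against 0.00 over all genes, and 8 of the 9 estimates were above 0. The groups did not overlap for 1 of the 9 (Hsp90ab1), and for 25.1% of all genes.

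Hsp90ab1 had 784.7, 742.1, 744.6 and 827.6 CPM in V1 to V4 and 878.0, 867.0, 863.5 and 851.1 CPM in T1 to T4. The treated libraries lay close together and above both other groups. The difference was 0.16 on the log2 scale (SE 0.07), with an edgeR adjusted p of 0.119, so it was not called. Without C1, a control library, it passed (adjusted p = 0.0438) at the same log2 difference of 0.16, with 14503 genes tested. The adjusted p over the 21 alternatives ranged from 0.0326 to 0.692.

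Serpinh1 was 0.39 higher on the log2 scale after the dose, with a 95% interval from -0.15 to 0.94 (edgeR adjusted p = 0.300), an interval that includes 0. On log2(TPM + 1) it was 0.76 higher (limma adjusted p = 0.0372), and with the deposited effective lengths as an offset in edgeR it was 0.65 higher (adjusted p = 0.172). Its effective length (mean ± SD, n = 4) was 9439 ± 1285 bases in the vehicle group and 7261 ± 1384 bases after the dose. The 2 scales differ in that length, and the median of all genes was also 0.17 higher on log2(TPM + 1). The part of each in the Serpinh1 value was not tested. Without V2, the lowest HFpEF-Veh library, the edgeR estimate was 0.22 (adjusted p = 0.560). Over all alternatives the estimate ran from 0.22 to 1.07 and the adjusted p from 0.0372 to 0.560.

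Hsp90aa1 differed by -0.11 after the dose, with a 95% interval from -0.29 to 0.06 (edgeR adjusted p = 0.356), and by 0.31 on log2(TPM + 1), where T1 alone was at 18.3 TPM and the other treated libraries were between 9.63 and 10.5 TPM. Hspa8 differed by 0.13 (interval -0.06 to 0.31) and Hspb1 by 0.13 (interval -0.17 to 0.42). Intervals were wider for the lower genes. Hspa1a differed by 0.33 (interval -0.40 to 1.06), Hspa1b by 0.14 (interval -0.47 to 0.75) and Cryab by 0.34 (interval -0.61 to 1.29).

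HFpEF-TYA-018 against Control-Veh asked what remained different from healthy hearts. Serpinh1 was called higher and was the only one of the 9 called, where 5.86% of all tested genes were called, 3.12% higher and 2.74% lower. It was 2.86-fold higher, 1.52 on the log2 scale (SE 0.26, edgeR adjusted p = 0.00850), in 4 of 4 treated libraries against every control. On log2(TPM + 1) the difference was 1.22 and missed the threshold (limma adjusted p = 0.0743), in a setting that called 9 genes in all, where edgeR called 840. The adjusted p of Serpinh1 ranged from 9.325e-06 to 0.0743 over its alternatives, with 19 of 21 below 0.05.

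All 9 estimates were above 0 in this comparison and 5 had an unadjusted p under 0.05, with a median of 0.22 against -0.02 over all genes. The share of all genes at an unadjusted p under 0.05 was not taken in any comparison. The 9 genes also come from the same libraries, so these counts were not read as a shift of the family. Dnajb1 was 1.17 higher (edgeR adjusted p = 0.119), and 0.52 higher without T4. Cryab was 1.03 higher (adjusted p = 0.195). Hsp90aa1 was 0.22 higher (adjusted p = 0.140) and Hsp90ab1 0.16 higher (adjusted p = 0.193). The groups did not overlap for 2 of the 9 (Serpinh1 and Hsp90ab1), and for 14.8% of all genes. The 3 comparisons share libraries, so a gene's values in one are not independent of its values in another.

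Serpinh1 was set beside the collagens it folds. Of 10 fibrillar and network collagen chains, 9 rose in HFpEF-Veh against Control-Veh (median log2 0.87), where 10.9% of all tested genes were called higher. Those with the smallest p were Col4a2 (0.91, edgeR adjusted p = 0.000109), Col6a1 (0.67), Col6a2 (0.73) and Col1a1 (0.99). After the dose 8 of the 10 fell and none rose (median -0.50), where 10.4% of all tested genes were called lower. Among the 8 were Col4a2 (-0.63), Col6a2 (-0.59), Col6a1 (-0.49) and Col5a1 (-0.45). Against Control-Veh, 2 were still higher after the dose, Col4a2 (0.29) and Col1a1 (0.48). Serpinh1 was thus called with the collagens in the model and was not called with them after the dose, where its estimate had the opposite sign. The difference between Serpinh1 and the collagens was not tested.

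**Figure D4:**
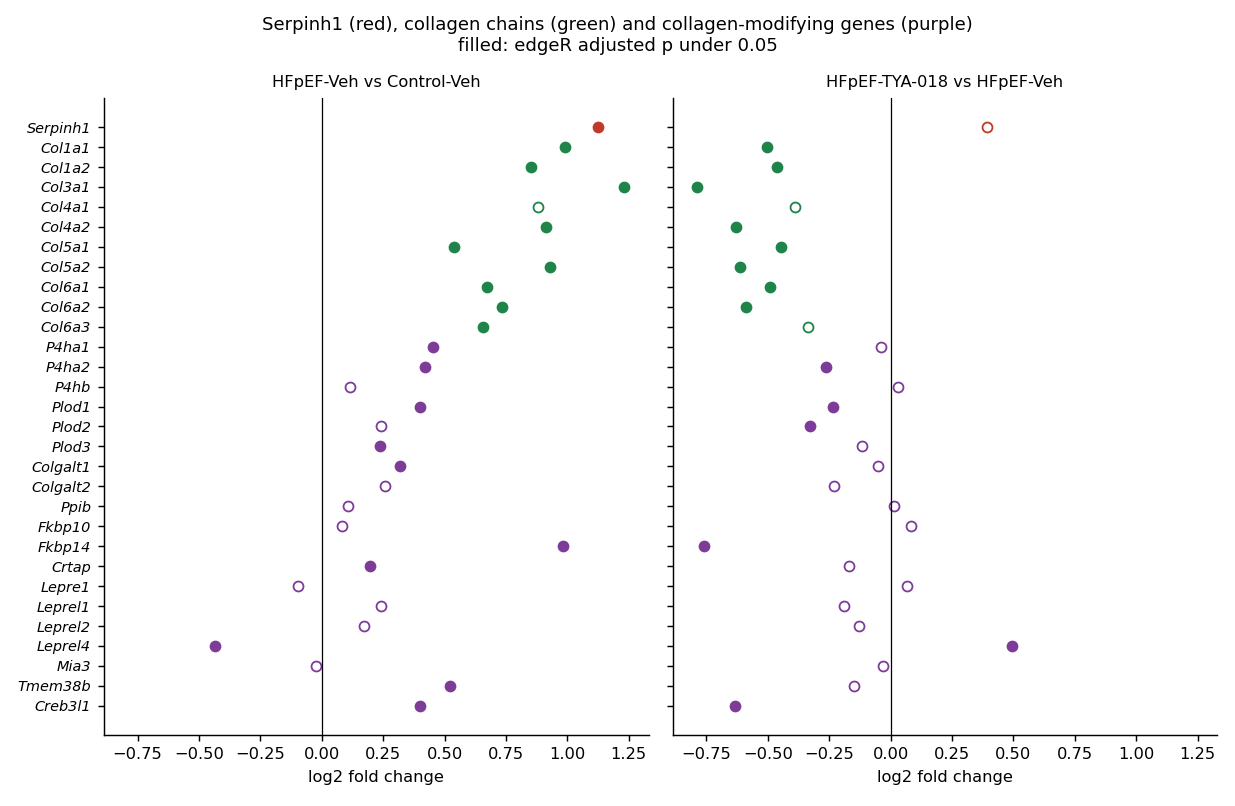
Log2 fold change (x axis) of Serpinh1 (red), 10 collagen chains (green) and 19 tested genes of collagen modification and folding (purple) for the model (left) and for the dose within the model (right), both from the edgeR fit. Filled points have an adjusted p under 0.05. All collagen points lie right of 0 on the left and left of 0 on the right, while Serpinh1 lies right of 0 in both, unfilled on the right.

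As a ratio within each library, which does not depend on how libraries were scaled, the CPM of Serpinh1 over the summed CPM of the 10 collagen chains was 0.0303, 0.0418, 0.0309 and 0.0262 in C1 to C4. The ratio was 0.0484, 0.0220, 0.0270 and 0.0556 in V1 to V4 and 0.0614, 0.0957, 0.0751 and 0.0560 in T1 to T4. The 4 treated libraries lay above the 8 others, by little for T4 over V4. HFpEF-Veh was split, with V1 and V4 above every control and V2 below every control. The ratio was chosen after the values were seen and carries no test.

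Among 20 genes of collagen modification and folding that exclude Serpinh1, 19 were tested. Among all tested genes, 21.2% were called in HFpEF-Veh and 19.3% after the dose. In HFpEF-Veh 9 rose and 1 fell, with the smallest p for the lysyl hydroxylase Plod1 (0.40), the endoplasmic reticulum prolyl isomerase Fkbp14 (0.98) and the prolyl hydroxylase subunits P4ha1 (0.45) and P4ha2 (0.42). After the dose 1 rose and 5 fell. Fkbp14 fell by 0.76, the collagen transcription factor Creb3l1 fell by 0.63 and Plod1 fell by 0.23 on the log2 scale, while Leprel4 (now P3h4) rose by 0.49. Against Control-Veh, P4ha1 (0.42), Tmem38b (0.37) and Plod1 (0.17) were higher after the dose and none was lower. P4ha1 was also among the 5 tested genes whose log2 CPM followed Serpinh1 most closely over the 12 libraries (Pearson's r = 0.881), with 3632451O06Rik (0.937), Setd8 (0.911), Ankrd33b (0.896) and B3galnt2 (0.881). These 12 libraries share 3 groups, so the correlations are descriptions.

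The cytosolic Hsp90 pair was compared in the same way. Hsp90aa1 stood to Hsp90ab1 as 0.0897, 0.0764, 0.0850 and 0.0856 in C1 to C4, as 0.0999, 0.0998, 0.119 and 0.105 in V1 to V4 and as 0.0769, 0.0952, 0.0939 and 0.0847 in T1 to T4. The 4 HFpEF-Veh libraries lay above the 8 others, and the treated and control libraries overlapped. The mean log2 ratio differed by 0.33 between HFpEF-Veh and Control-Veh and by -0.28 between HFpEF-TYA-018 and HFpEF-Veh. This ratio was also chosen after the values were seen and was not tested. The proportion of 31-base words shared with other genes was 16.6% for Hsp90ab1.

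**Figure D5:**
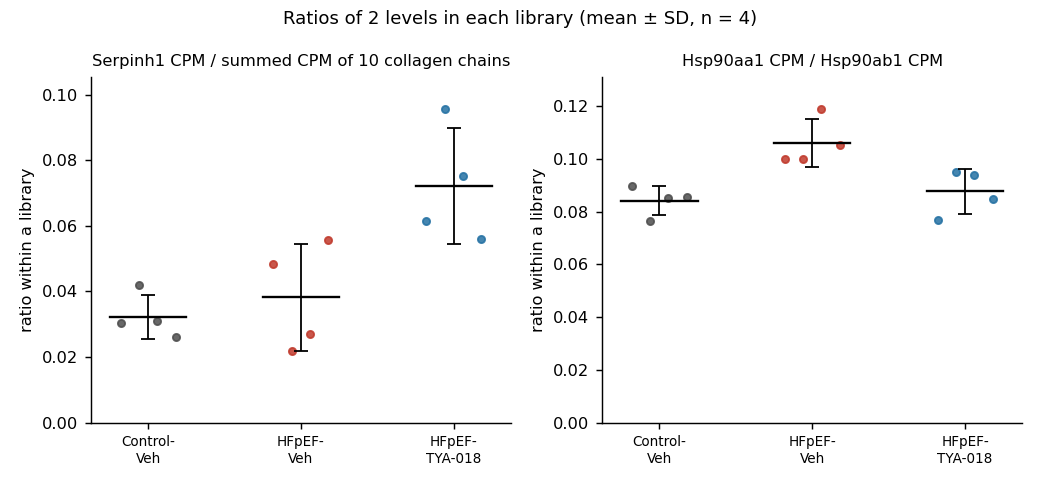
Ratio of 2 levels within each library (y axis, from 0) by group, with 1 point per library and the mean ± SD of 4 libraries. The left panel gives Serpinh1 over the summed CPM of 10 collagen chains, where the HFpEF-TYA-018 points (0.0560 to 0.0957) lie above all others, and the right panel gives Hsp90aa1 over Hsp90ab1, where the HFpEF-Veh points (0.0998 to 0.119) lie above all others.

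Partners of Hsp70 and Hsp90 were read from lists chosen by role, also with earlier results of these data known. Of all tested genes, 21.2% were called in HFpEF-Veh, 19.3% after the dose and 5.86% after the dose against Control-Veh. Counts in these lists and those below were not tested against these shares. Among 18 Hsp90 co-chaperones, all tested, 1 rose in HFpEF-Veh and none fell. It was Fkbp5, a glucocorticoid-induced immunophilin that binds Hsp90, which went from 68.5 ± 15.9 to 124.4 ± 12.1 CPM (log2 0.86, SE 0.14, edgeR adjusted p = 0.00194). After the dose Fkbp5 fell by 0.87 to 68.2 ± 5.81 CPM (adjusted p = 0.00257), and the myosin chaperone Unc45b (0.38), Fkbp4 (0.28) and Fkbp8 (0.24) rose. No co-chaperone was called against Control-Veh, where 3 had an unadjusted p under 0.05. For Fkbp5 the log2 difference from Control-Veh after the dose was -0.01, with an interval from -0.31 to 0.30.

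Among 8 other Hsp70 and Hsp110 genes, Hspa4, an exchange factor related to Hsph1, rose in HFpEF-Veh (0.20, edgeR adjusted p = 0.0117) and was still higher after the dose (0.25 against Control-Veh, adjusted p = 0.0128). Hspa12b, an endothelial relative of Hsp70, fell by 0.50 after the dose, and Hspa12a was lower against Control-Veh (-0.30). Summed endothelial markers (5 genes) were 822.4 to 990.4 CPM in HFpEF-Veh and 640.2 to 793.5 in HFpEF-TYA-018, and their part in the fall of Hspa12b was not tested. Of 18 J proteins, Dnajb5 (0.41) and Dnajc3 (0.31) rose in HFpEF-Veh, where 21.2% of all tested genes were called. After the dose Dnajb2 (0.31) and Dnaja3 (0.28) rose and Dnajc3 fell by 0.31, where 19.3% of all tested genes were called. No J protein was called after the dose against Control-Veh.

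Of 9 exchange factors and partners of Hsp70, Bag2 rose in HFpEF-Veh (0.29) and was higher after the dose against Control-Veh (0.35). After the dose the ubiquitin ligase Stub1 (0.54), which tags clients of Hsp70, and the exchange factor Hspbp1 (0.39) rose and Bag5 fell by 0.27. Hspb8 was the 1 gene called among 5 other small heat shock proteins, and it rose after the dose (0.24, from 278.0 ± 8.17 to 327.9 ± 10.2 CPM). Of 8 organelle chaperones, mitochondrial Trap1 fell by 0.20 in HFpEF-Veh and rose by 0.32 after the dose, where the mitochondrial Hsp70 Hspa9 also rose (0.26). Hspd1, the mitochondrial chaperonin, was higher after the dose against Control-Veh (0.39).

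The 8 subunits of the cytosolic chaperonin TRiC, which folds actin and tubulin, gave no call in HFpEF-Veh, where 1 had an unadjusted p under 0.05. After the dose Cct4 (0.27) and Cct8 (0.23) rose, and all 8 estimates were above 0 with a median of 0.15, while Cct3 was higher against Control-Veh (0.26). Summed cardiomyocyte markers were 19582 to 21194 CPM in HFpEF-Veh and 21972 to 24031 in HFpEF-TYA-018, without overlap, and their part in these rises was not tested.

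Of the cytosolic chaperones, 5 tested genes (inducible Hspa1a, Hspa1b, Dnajb1 and Hsp90aa1 with constitutive Hspa8) were averaged after standardising log2 CPM. The genes nearest to that mean over the 12 libraries were Lpin1 (Pearson's r = 0.921), Ctns (0.911), Slc25a25 (0.869), Cap2 (0.865) and Tuba3b (0.865). Among the tested chaperones themselves, Hspa1a and Hspa1b had the highest r (0.779), followed by Hsp90ab1 with Hspb1 (0.748) and Hspa8 with Hsp90ab1 (0.726), and Dnajb1 with Hspb1 had the lowest (-0.10). The first of these pairs shares sequence and all of them share libraries, so these are descriptions.

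Lists that can follow temperature, time of day or handling were also read. Both cold-inducible RNA-binding genes were lower after the dose than in Control-Veh, Rbm3 by a log2 difference of -0.62 and Cirbp by -0.49, while Cirbp fell by 0.66 in HFpEF-Veh and Rbm3 fell by 0.38 after the dose. Of 15 clock genes, 5 fell in HFpEF-Veh (Tef, Per3, Nr1d2 and Hlf among them), 3 rose and 1 fell after the dose, and Nr1d2 was the only one called against Control-Veh (-0.41). None of 10 immediate early genes was called in any comparison, with 1, 0 and 2 at an unadjusted p under 0.05 in the order of the comparisons above. The part of temperature or time of day in the chaperone values was not tested.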

How the data were processed

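The members and gene lists were chosen with earlier results of these data known. Libraries were grouped by sample title. Per the labels and methods, the authors quantified reads with Salmon 1.6.0 and tximport against mouse transcripts (GRCm38), although the labels name build hg38, and read length and layout differ between the labels and methods. The authors deposited estimated counts, TPM and, as another value, effective length in bases per gene and library. Estimated counts were rounded, filtered (filterByExpr, 14333 genes) and scaled by TMM, and 1 edgeR 4.0.16 quasi-likelihood model was fitted to 12 libraries (9 residual degrees of freedom). Tests were two-sided with Benjamini-Hochberg adjustment over all tested genes, called under 0.05, and were checked on simulated data. Depth was 61.2 M to 83.9 M counts, and the common biological coefficient of variation between libraries was 0.232. Value columns left out numbered 0.

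Alternatives were other size factors, DESeq2 1.42.0, no filter, 2 groups only, effective-length offsets, no mitochondrial or globin genes, limma 3.58.1 on log2(TPM + 1) or log2(TPM + 0.1), each library left out, and Hspa1a and Hspa1b summed. Adding counts of sequence-sharing genes was chosen after seeing the data. All 10 members were named, and of other lists called genes only, at most 4 per comparison by smallest p, except Hsf1 and Hspb2, plus the 5 genes with the highest Pearson's r to each of 2 patterns.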

Additional observations from a re-analysis of the deposited data

Results flagged for a closer look

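Of 30 sets of 4 libraries (10 genes in 3 groups), 2 had a library that stood apart by Dixon's ratio. Chance flags about 1 in 20 such sets of continuous values, a rate that does not hold for a row with many zeros. Dnajb1 in HFpEF-TYA-018 library T4 was at 17.3 CPM, while the next library of its group was at 6.38 CPM. Hsph1 in HFpEF-Veh library V4 was at 0.0694 CPM, an estimated count of 3.59, beside 3 libraries listed at 0. With those 3 at 0, any value above 0 would have been flagged.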

How the results depend on the processing

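No paired analysis was possible because the labels number animals without overlap between groups, and the replicate numbers used here only name libraries in accession order. Leaving out each library in turn gave 2 to 2 chaperone genes called between HFpEF-Veh and Control-Veh, 0 to 1 between HFpEF-TYA-018 and HFpEF-Veh (1 without Control-Veh replicate 1, Hsp90ab1) and 1 to 1 between HFpEF-TYA-018 and Control-Veh. With limma on log2(TPM + 1) or log2(TPM + 0.1) the numbers were 0, 3 and 0 in the same order, and the cause was not tested. Signs turned for values that had no call. Between HFpEF-Veh and Control-Veh, Hsp90ab1 was at 0.00079 with median-ratio size factors, 0.00081 with DESeq2, 0.076 with effective lengths and from -0.056 to 0.031 without single libraries. In the same comparison, leaving out single libraries gave -0.43 to 0.22 for Hspa1a, -0.13 to 0.0029 for Hspa8, -0.064 to 0.14 for Hspb1 and -0.054 to 0.39 for the log2 ratio of Serpinh1 to collagens (lowest without HFpEF-Veh replicate 4), and Hspa1a was at 0.034 when summed with Hspa1b. Between HFpEF-TYA-018 and HFpEF-Veh, Hspa1b was at -0.00028 with effective lengths and -0.017 to 0.36 without single libraries, Hspb1 at -0.21 with effective lengths, and Hsp90aa1 at 0.31 and 0.33 on the TPM scales. Between HFpEF-TYA-018 and Control-Veh, Hspa1a ran from -0.021 to 0.55 without single libraries. Over all genes edgeR called 3033, 2767 and 840 in the 3 comparisons. Effective-length offsets gave 1445, 1217 and 203, DESeq2 gave 1514 in the last, and limma gave 172 and 9 in the first and last with log2(TPM + 1) and 301 and 11 with log2(TPM + 0.1). Without single libraries the calls ran from 1986 to 3992, 1485 to 3251 and 308 to 809. Hsph1 had at most 27.2 estimated counts in a library, and the cause was not tested.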
